A study of Mus musculus with 4 samples.

Results

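The regions described here are 2210 Gata4 peaks of the DKO Flk1(+) library that lay in CpG-poor DNA. The authors named no gene within 5 kb of them, and they had no peak beside them in the wild-type (WT) list. They were chosen by the measured values themselves. Of the 22733 peaks of the DKO list, 12483 (54.9%) lay over 500 bp from every WT position, 2606 of these had no gene named by the authors within 5 kb, and 2210 of those held fewer than 20 CpGs in a window reaching 250 bp to either side of the peak. These counts follow from the choice and describe it, and nothing is read from the share of 54.9%. The members are called DKO-only distal peaks below. Beside them stand the DKO peaks that met the same CpG and distance limits but did have a WT peak within 500 bp (shared distal peaks, n = 2268), the peaks of the WT list that met those limits and had no DKO peak within 500 bp (WT-only distal peaks, n = 4754), and the CpG-poor DKO peaks without a WT peak for which a gene was named (DKO-only peaks near genes, n = 3813).

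Chromatin was immunoprecipitated with a mixture of Gata4 antibodies and sequenced from 4 libraries, with 1 library per condition. Both ES cell lines derived from J1 on a 129 background, each was a single clone (labelled J1G4.2 for WT, which the study calls by a longer name, and 16G4.3 for DKO), and DKO stands for Dnmt3a-/-Dnmt3b-/-, the loss of both enzymes that methylate unmethylated CpGs. Both carried Gata4GR, Gata4 joined to the glucocorticoid receptor's ligand-binding domain and driven by the CAG promoter, which is active in most cell types. The WT and DKO Flk1(+) cells were mesoderm progenitors at day 4.5 of co-culture with OP9 stromal cells, exposed to 100 nM dexamethasone (Dex) for 3 hr and collected by magnetic sorting for the receptor Flk1, while the WT and DKO ES controls were undifferentiated and received no Dex. Peak lists hold no expression values, so the label Flk1(+) could not be checked against markers here.

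No condition had a replicate, so no p-value is given, and clone, library and genotype cannot be told apart. Shares of peaks carry 95% Wilson intervals, which cover counting error within 1 library only. The lists give no value of the WT library at a DKO-only position, so a signal there below the peak threshold cannot be told apart from none. The study states more mapped reads for the DKO Flk1(+) than for the WT Flk1(+) library, and whether the heights were scaled for depth is not known. A peak with no WT neighbour is therefore a peak that was called in DKO cells alone, not a site shown to be unbound in WT cells.

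Gata4 is a zinc-finger transcription factor of the heart, the endoderm and the gonads, and it binds the letters WGATAA or WGATAG, where W is A or T. It can bind at enhancers far from promoters, often beside other factors, among them AP-1, the Fos and Jun dimers that bind TGACTCA. CpG methylation is laid down by Dnmt3a and Dnmt3b and kept through cell division by Dnmt1, and CpG-poor DNA between genes is mostly methylated in differentiated cells while CpG islands at promoters are mostly free of it.

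The sequences that carry the description are shown first, on the plus strand of mm9 in short stretches that hold the peak position. They come from the sequences deposited with the peaks, which follow the reference genome of C57BL/6 mice and not the 129 genome of these cells. Each is named by the protein-coding gene with the nearest start site, and that name says nothing about which gene a peak acts on. The first set is taken from the 10 members with the best rank in the DKO list, with matches to WGATAA on either strand in capitals.
Defb42, chr14:63681197-63681297: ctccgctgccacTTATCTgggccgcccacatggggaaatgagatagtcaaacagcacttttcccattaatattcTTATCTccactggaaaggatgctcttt
Mup5, chr4:61517009-61517109: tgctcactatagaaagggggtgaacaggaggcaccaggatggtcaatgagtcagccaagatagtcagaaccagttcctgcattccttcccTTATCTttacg
Rpap3, chr15:97421347-97421447: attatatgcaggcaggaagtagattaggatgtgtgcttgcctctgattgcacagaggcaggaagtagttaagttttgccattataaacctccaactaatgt
Klf6, chr13:5823707-5823807: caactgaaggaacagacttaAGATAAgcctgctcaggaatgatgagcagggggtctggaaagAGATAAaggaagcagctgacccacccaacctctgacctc
Rspo3, chr10:29262638-29262738: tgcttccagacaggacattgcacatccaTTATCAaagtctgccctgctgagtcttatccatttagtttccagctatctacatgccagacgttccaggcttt
Sox11, chr12:28508363-28508463: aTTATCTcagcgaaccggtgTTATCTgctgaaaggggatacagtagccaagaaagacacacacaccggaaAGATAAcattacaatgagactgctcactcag
All but the Rpap3 sequence hold a match near the peak, the Defb42, Klf6 and Sox11 sequences more than 1, and the Rpap3 window has none throughout. The next set shows members with the most matches, where the motif stands in a simple repeat (Gm16477) or in a repeated unit of a longer sequence (Bcl2l11), again with WGATAA in capitals.
Gm16477, chr7:138889021-138889121: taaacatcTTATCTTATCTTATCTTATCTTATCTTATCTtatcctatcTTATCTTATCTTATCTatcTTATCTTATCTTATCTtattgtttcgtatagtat
Bcl2l11, chr2:128044538-128044638: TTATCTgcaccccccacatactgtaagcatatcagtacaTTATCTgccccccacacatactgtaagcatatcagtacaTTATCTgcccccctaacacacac
A peak upstream of Gata4 itself is shown because its gene was on the list of endoderm factors, with WGATAA in capitals.
Gata4, chr14:63962523-63962623: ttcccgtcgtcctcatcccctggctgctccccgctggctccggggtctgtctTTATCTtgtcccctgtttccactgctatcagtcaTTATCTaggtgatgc
Members without any WGATAA made up a large part of the set. The following 2 are shown for their AP-1 word, in capitals, and were chosen after their values were seen.
Jmjd1c, chr10:66327340-66327440: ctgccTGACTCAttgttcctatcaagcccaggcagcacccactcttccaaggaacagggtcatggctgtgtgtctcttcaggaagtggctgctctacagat
Man1a, chr10:53837731-53837831: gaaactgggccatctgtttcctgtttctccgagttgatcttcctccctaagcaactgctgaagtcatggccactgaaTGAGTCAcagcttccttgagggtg
The last is shown for the word CACACG, in capitals, and for the run of CA beside it, and was also chosen after its values were seen.
Gm5082, chr13:41758145-41758245: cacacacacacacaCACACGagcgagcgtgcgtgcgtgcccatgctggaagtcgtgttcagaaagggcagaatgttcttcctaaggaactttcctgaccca

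DKO-only distal peaks were low peaks. The height of the authors' profile at the peak, a signal in their units, had a median of 6.0 with quartiles of 5.37 and 7.22, where 5.00 is the lowest height in the list. Of the 2210 members, 155 stood under 5.1, 171 exceeded 10 and 44 exceeded 15. The median was 7.21 for shared distal peaks in the same library and 5.94 for DKO-only peaks near genes. In the WT library, with its own scale, the median of WT-only distal peaks was 6.79. The ES profile of the same genotype, which is the only other library with a value at these positions, had a median height of 1.33 at members, 1.08 at shared distal peaks and 1.40 at DKO-only peaks near genes. The ratio of peak height to ES height, with an ES height below 1 taken as 1, had a median of 4.71 at members and 6.02 at shared distal peaks. The ranks of members ran from 83 to 22729 with a median of 12681.5, where 1 is the best. Members were thus lower than the shared peaks and stood on a higher ES background, and their heights overlapped those of all the other sets.

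**Figure D1:**
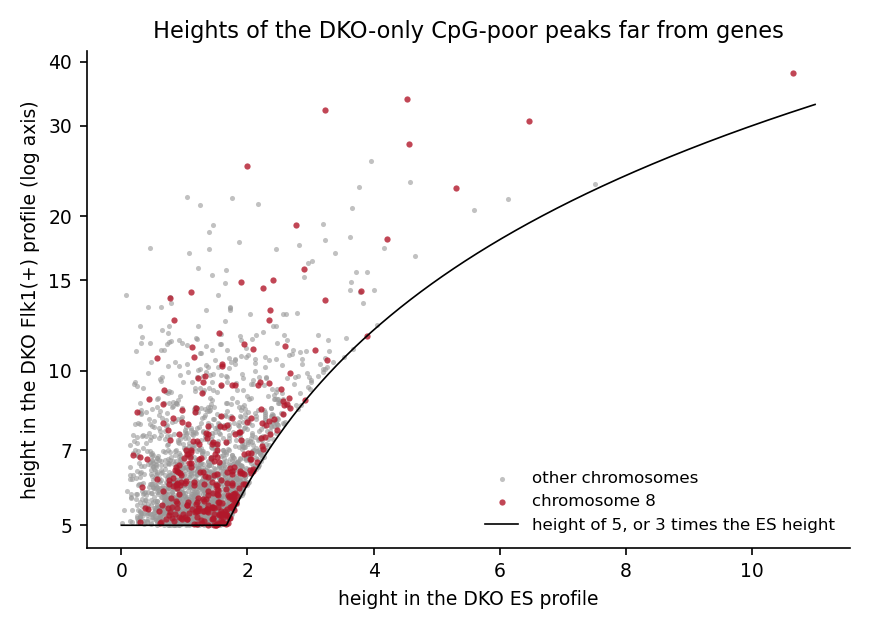
Height of the Flk1(+) profile (vertical log axis, authors' units) against that of the DKO ES profile (horizontal axis) at DKO-only distal peaks. Those on chromosome 8 are in red, and the line marks a height of 5 or 3 times the ES height, whichever is larger. Members had a median of 6.0. The other sets are not drawn: shared distal peaks had 7.21 in the DKO library, and WT-only distal peaks 6.79 in the WT library on its own scale.

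The 10 members with the best rank were at separate loci. The peak nearest the start of Defb42, a beta-defensin gene, ranked 83 with a height of 21.8 over an ES height of 1.05, held 3 CpGs and 2 WGATAA matches, and lay 5711 bp from the closest WT peak. The peak nearest Mup5, a major urinary protein gene, reached 21.1 over 1.25, and 75.6% of its window was repeat-masked. The peak nearest Rpap3, whose product helps assemble RNA polymerase II, reached 18.7 over 1.39 without a match. The ratios of height to ES height of these peaks were 20.8, 16.8 and 13.5, against the median of 4.71. Those nearest Klf6, a zinc-finger factor, and Sox11, an HMG-box factor, reached 17.3 and 21.7 with 3 matches each, the latter 480839 bp from the Sox11 start. The peak nearest Rspo3, a secreted enhancer of Wnt signalling, reached 16.9 with 2 matches. The peaks nearest Tead1 (19.2), Cbfa2t3 (25.1) and Dusp4 (32.2) each held 1 or 2 matches.

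The limits of the choice passed through a continuous range. Just inside the limit of 500 bp were the peaks nearest Asb5 (height 8.33), Pecam1 (WT peak 502 bp away, 7.07) and Foxp1 (507 bp, 5.75). Just outside it were those nearest Foxc2 (497 bp, 6.40), Pkdcc (476 bp, 11.3) and Car4 (469 bp, 5.44). Within 100 bp of the limit lay 19 members on its inner side and 19 shared peaks on its outer side. At 19 CpGs the best-ranked members were nearest 1700018B08Rik (height 8.60), Chd2 (6.50) and Hmox1 (14.3), and at 20 CpGs the best-ranked peaks left out were nearest Txndc5 (13.3), Pllp (9.74) and Hlcs (10.7). There were 27 members with 19 CpGs, 23 peaks left out at 20, and 66 members with no CpG at all.

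The GATA motif was less frequent in DKO-only distal peaks than in shared or WT-only distal peaks, though more frequent than beside them. WGATAA was present in 1233 of 2210 members, 55.8% (53.7 to 57.9), against 40.02% of windows of equal length 2 kb to either side. The share was 86.0% (84.5 to 87.3) for shared distal peaks with 42.1% in their flanks, and 79.1% (77.9 to 80.2) for WT-only distal peaks with 44.3%. For DKO-only peaks near genes it was 47.7% (46.1 to 49.3) with 36.3%, and over all DKO peaks 38.1%. The intervals of the members and of shared and WT-only distal peaks do not overlap. Exactly 1 match was found in 655 members, 2 in 375 and at least 3 in 203, and the mean was 0.967 matches per member against 1.76 per shared peak and 1.46 per WT-only peak.

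Within 100 bp to either side of the peak, called its centre below, the contrast with the flanks was sharper. There 43.1% of members (41.1 to 45.2) held WGATAA against 18.6% of flanks, a ratio of 2.32, while shared distal peaks gave 78.2% and a ratio of 3.91 and WT-only distal peaks 69.3% and 3.23. The matches that members did hold gathered at the peak: 42.2% (40.1 to 44.3) of 2136 lay in the central 100 bp, where even placement gives 20.2%. The value was 46.2% for shared distal peaks, 46.4% for WT-only distal peaks and 41.6% for DKO-only peaks near genes. By density, the central bin held 4.43 matches per kb per peak in members and 8.75 in shared distal peaks, and both profiles fell to a low level at the window edges.

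**Figure D2:**
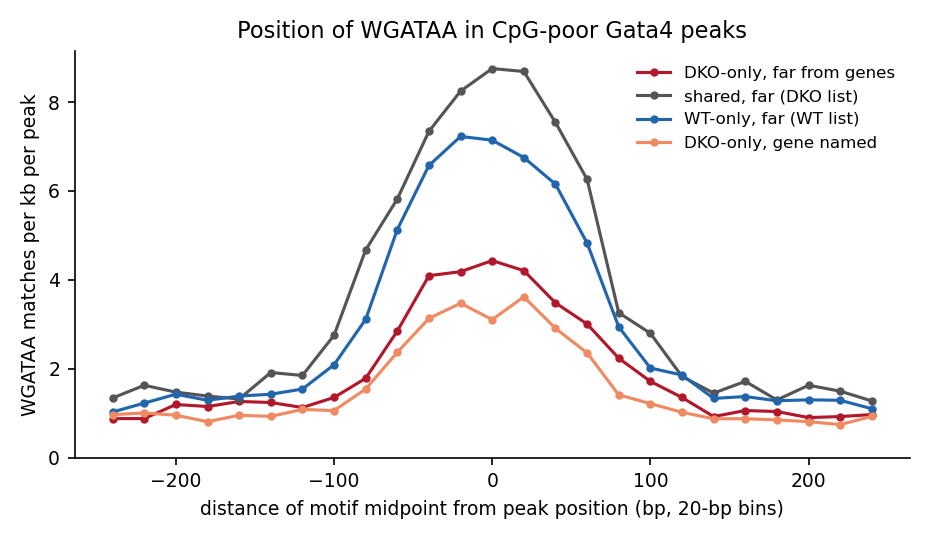
Matches to WGATAA per kb per peak (vertical axis) by distance from the peak position in bp (horizontal axis), 1 line for each set of CpG-poor peaks. All lines rise at the centre, to 4.43 in DKO-only distal peaks and 8.75 in shared distal peaks.

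Taller members held the motif more often, as did taller peaks in the other sets. Among members of height 5 to 5.5 the share with WGATAA was 46.9% (43.3 to 50.6, n = 710), and among those of at least 9 it was 75.9% (70.2 to 80.8, n = 249). In shared distal peaks it went from 79.3% to 92.7% over the same classes, and in WT-only distal peaks from 73.7% to 85.9%. At equal height in the DKO library, members thus remained below shared peaks in both of these classes, with intervals that do not overlap. By rank, the best-ranked 221 members had WGATAA in 81.9% (76.3 to 86.4) and the worst-ranked group of equal size in 33.5% (27.6 to 39.9). The median ES height was 1.21 in the former and 1.82 in the latter, and 14.03% and 29.9% of their windows were over 50% repeat-masked. Whether ES background or repeats have a part in the motif share was not tested.

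**Figure D3:**
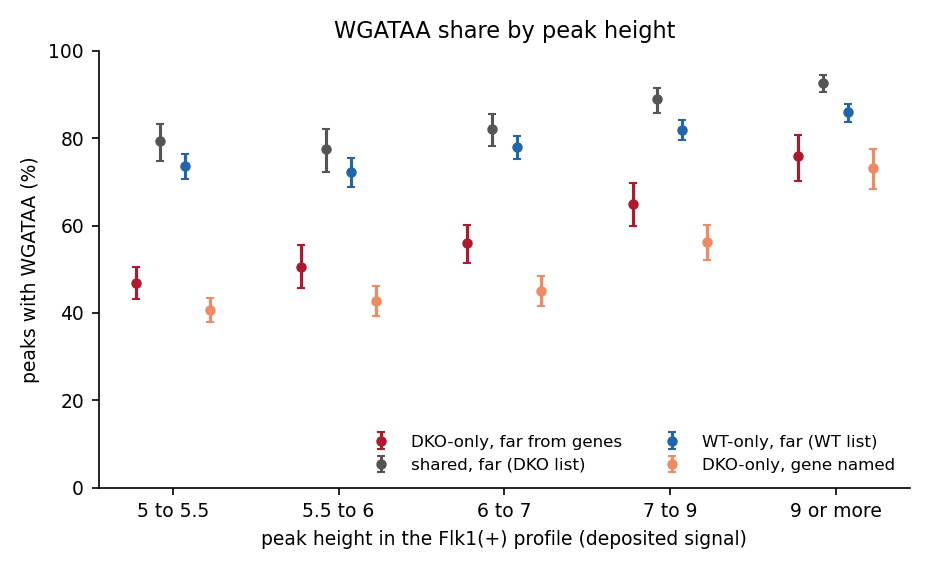
Share of peaks with WGATAA in percent (vertical axis) by class of peak height in the authors' units (horizontal axis), with bars for the 95% Wilson interval. DKO-only distal peaks rise from 46.9% to 75.9% and stay below shared distal peaks, which rise from 79.3% to 92.7%.

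The share with WGATAA also moved with CpG number. It was 57.0% in members with 0 to 4 CpGs, 62.0% with 5 to 9, 47.7% with 10 to 14 and 41.7% with 15 to 19, and in shared distal peaks 91.1%, 86.8%, 79.9% and 62.6%. Members held a median of 7 CpGs per window, shared distal peaks 6 and WT-only distal peaks 5, with GC contents of 48.7%, 48.1% and 46.9%. Members were below shared peaks in each CpG class.

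WGATAA has no CpG within it, so the distance from a match to the nearest CpG was measured. Of the matches in members, 21.8% (20.1 to 23.6) had a CpG within 10 bp, against 20.6% in shared and 17.2% in WT-only distal peaks. Within classes of CpG number the values lay close together, as at 5 to 9 CpGs with 24.1% for members, 24.1% for shared and 22.5% for WT-only distal peaks. The variant CGATAA, which does contain a CpG, was found in the centre of 59 members (2.67%, against 1.27% of flanks), 77 shared distal peaks (3.40%) and 68 WT-only distal peaks (1.43%). A CpG lay within 50 bp of the peak in 72.4% of members, 66.4% of shared and 62.3% of WT-only distal peaks. Methylation was not measured in these libraries.

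Repeats took a larger part of the members' DNA than of shared distal peaks and of DKO-only peaks near genes. The median window of a member was 10.2% repeat-masked, that of a shared distal peak 6.19% and that of a WT-only distal peak 8.58%. The interval of the members' median, 8.38% to 11.6%, holds the WT-only value. For DKO-only peaks near genes the median was 0%. Over 50% of the window was masked in 21.9% of members (20.3 to 23.7), 14.2% of shared and 19.1% (18.0 to 20.3) of WT-only distal peaks. It was so in 12.3% of DKO-only peaks near genes. Among members, WGATAA was present in 41.9% of windows over 50% masked and in 58.3% of windows with no masked base. In shared distal peaks over 50% masked the share was 86.6%, and in WT-only ones 83.7%. In DKO-only peaks near genes it was 42.3% over 50% masked and 47.4% with no masked base. The members with the most matches held the motif as a simple repeat or in a repeated unit of a longer sequence. The Gm16477 peak held 13, the overlapping peaks nearest Enthd1 11 and 10, the Bcl2l11 peak 10 and the Ptprd peak 8. Most of these windows were hardly masked, with 70.1% at Gm16477, 0% at both Enthd1 peaks, 0.998% at Bcl2l11 and 9.18% at Ptprd. The Bcl2l11 peak was 14.4 high over an ES height of 4.002, and the Gm16477 peak 17.2 over 2.46. Members were not mainly copies of each other: 57 (2.58%) had a stretch of 30 bp in common with another member. The largest such family held 17, whereas 266 WT-only distal peaks (5.60%) had such a stretch, with a family of 144. However, 187 members (8.46%) lay within 500 bp of another member, so that their windows overlap and each counts in the shares. As these outnumber the 57, such overlaps were not all counted as common stretches.

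The AP-1 word was as frequent in members as in shared distal peaks. TGACTCA or its reverse complement TGAGTCA stood in the centre of 14.2% of members (12.8 to 15.7) against 3.6% of flanks, a ratio of 3.95. The share was 15.0% in shared distal peaks with a ratio of 4.25, 9.02% in WT-only distal peaks with 2.42, 10.7% in DKO-only peaks near genes with 2.72, and 7.24% in all DKO peaks. It was found in 14.9% of members with WGATAA and 13.3% (11.3 to 15.6) of members without, with intervals that overlap. In shared distal peaks it was found in 13.9% with WGATAA and 21.4% (17.2 to 26.2) without. Among peaks without WGATAA, members thus held the AP-1 word less often than shared distal peaks. The share hardly moved with height, at 13.5% of members from 5 to 5.5 and 16.5% of those of at least 9. Of the AP-1 matches in members, 32.4% (28.8 to 36.3, n = 601) were in the central 100 bp of the window. The peak shown for Jmjd1c, a gene of the histone demethylase family, reached 10.8, and that for Man1a, a Golgi mannosidase, 9.71.

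The Sox word ACAATG was more frequent in members than in shared and WT-only distal peaks. It was found in the centre of 13.6% of members (12.3 to 15.1) against 10.9% of flanks, a ratio of 1.25. In shared distal peaks it was found in 9.88% (8.72 to 11.2), a ratio of 0.911, and in WT-only distal peaks in 8.62% against 11.8% of flanks, a ratio of 0.733. Sox factors are HMG-box proteins, several of which act in early endoderm and in ES cells. Among members of height 9 and above the share was 22.9% (18.1 to 28.5), against 10.5% (8.43 to 12.9) of shared and 9.13% of WT-only distal peaks in that class. DKO-only peaks near genes had 15.5% (12.2 to 19.6) there. In the lower height classes the share was 11.1% to 13.7% in members and 7.58% to 10.4% in shared distal peaks. The intervals of members and shared distal peaks overlap in each lower class. Over all heights the share was 16.5% in members with WGATAA and 10.0% in members without. DKO-only peaks near genes had 12.5% and a ratio of 1.22, so that the word was not particular to distal members. Of the matches, 25.6% (22.6 to 28.8, n = 739) were central.

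The remaining words differed less from the flanks than WGATAA and AP-1 did, though Tead differed more than Sox. The Tead word GGAATG stood in 15.7% of members with a ratio of 1.39, below the 1.90 of shared and the 1.53 of WT-only distal peaks. The E-box CAGATG had a ratio of 1.06 in members and 1.25 in both other distal sets, and the Fox words TGTTTAC and TATTTAC had 1.00. The Oct octamer was in 19 members. The full glucocorticoid response element, which could bind the receptor itself though Gata4GR carries its ligand-binding domain alone, was found in 1 of the 2210, and the tandem GATA repeat in 4. In 671 members (30.4%, 28.5 to 32.3) there was no WGATAA in the window and no AP-1, Sox or Tead word in the centre. These members had a median height of 5.8, an ES height of 1.46 and 35.0% of windows over 50% masked.

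**Figure D4:**
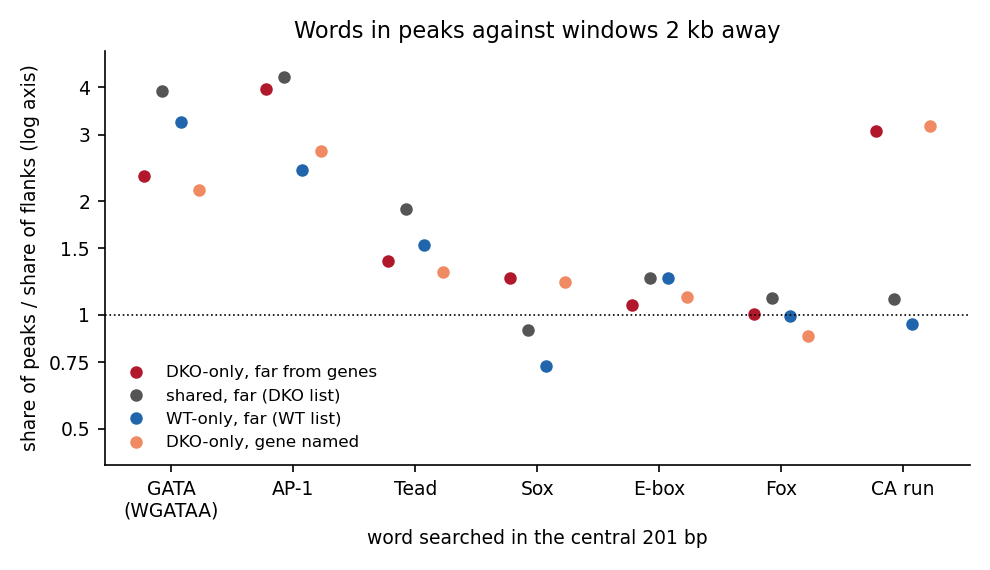
Share of peaks with a word within 100 bp of the peak divided by the share of windows 2 kb away (log axis) for each set of CpG-poor peaks. DKO-only distal peaks stand at 2.32 for WGATAA, 3.95 for AP-1, 1.25 for Sox and 3.07 for runs of CA, and shared distal peaks at 3.91, 4.25, 0.911 and 1.10.

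All words of 6 letters were then ranked by their density in the central 100 bp over that in the rest of the window, among 799 words with at least 100 central occurrences. The top of the list was GATA words, CTTATC with a ratio of 3.75, AGATAA with 3.06 and TGATAA with 2.62. Among the first 20 words of the members were 5 that contain CG: CACACG (2.02), ACACGC (1.88), CACGCA (1.86), ACACGT (1.84) and ACGCAC (1.81). In shared distal peaks these words had ratios of 1.07 to 1.22, and in WT-only distal peaks of 0.824 to 1.29. Most of them were too few there to be ranked, with 32 to 73 central occurrences in shared distal peaks. These words were chosen after their values were seen and have no test.

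At least 1 of the 5 words was present in the centre of 527 members, 23.8% (22.1 to 25.7), against 11.5% of flanks, a ratio of 2.07. The share in shared distal peaks was 11.2% (10.0 to 12.6) with a ratio of 1.02, and in WT-only distal peaks 11.02% with 1.15. DKO-only peaks near genes had 22.9% and 1.78, so the words were not particular to distal members. All DKO peaks had 24.3% and 2.19, but their windows held a median of 21 CpGs against 7 in members. Within members of 0 to 4 CpGs the share was 16.5%, against 5.08% of shared and 6.59% of WT-only distal peaks with as few CpGs, and at 15 to 19 CpGs it was 36.4%, 26.1% and 25%. Members with such a word held WGATAA less often, in 43.5% against 59.7%, and 33.0% of them were over 50% masked against 18.5%.

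Runs of the dinucleotide CA, a common simple repeat, were counted as well. A run of at least 6 CA units on either strand was in the centre of 293 members, 13.3% (11.9 to 14.7), against 4.32% of flanks, a ratio of 3.07. In shared distal peaks it was in 4.76% (3.96 to 5.72) with a ratio of 1.10, and in WT-only distal peaks in 3.81% with 0.948. DKO-only peaks near genes had a share of 10.1% with a ratio of 3.16. Runs of CA were therefore a feature of CpG-poor DKO peaks without a WT peak, far from genes or near them, and stood at about the level of the flanks in both distal sets with a WT peak. Members with a run held WGATAA in 30.7% (25.7 to 36.2), against 59.6% of members without. Their ES height was 1.41 against 1.32, and their windows were over 50% masked in 51.5% against 17.4%. Of the 527 members with a CG word, 150 had a run as well, as did 30 of 255 shared and 62 of 524 WT-only distal peaks. The peak nearest Gm5082, whose sequence is shown above, reached 9.10 over an ES height of 1.52. The part of repeat masking in these counts was not tested.

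DKO-only distal peaks lay nearer to genes than the other distal sets. The median distance to the nearest protein-coding start site was 36979 bp for members, 49337 bp for shared and 60645 bp for WT-only distal peaks. More than 50 kb away were 41.4% of members (39.4 to 43.5), 49.6% of shared and 56.1% of WT-only distal peaks. The share with WGATAA was 48.9% in members within 10 kb of a start, 64.5% from 100 to 500 kb and 92.3% (75.9 to 97.9) in the 26 beyond 500 kb. Shared distal peaks also had it more often at a distance, with 83.0% within 10 kb and 90.2% from 100 to 500 kb. The gene annotation used for these distances differs from the one behind the authors' gene names. In it, 214 members lay within a coding gene body and 288 (13.0%) within 5 kb of one. The member closest to a coding start was 25 bp from it, so the name distal rests on the authors' gene names. The members had 1538 different nearest genes, of which 1138 were nearest to 1 member and 50 to at least 4, with 13 for Irf2bp2, 11 for Rybp, a partner of Polycomb proteins, and 9 for Efnb2, an ephrin ligand of vessels.

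Most members were far from any WT peak. The nearest was at a median of 21449 bp, with 77 members up to 1000 bp away, 304 up to 5 kb, 674 up to 20 kb, 838 up to 100 kb and 317 beyond. The share with WGATAA was 57.1%, 49.7%, 54.2%, 57.5% and 60.3% in these classes, with no steady change by distance. WT-only distal peaks lay at a median of 39578 bp from the nearest DKO peak.

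Few members were near the genes of the lists, but the choice had already left out peaks with a gene named within 5 kb. The shared and WT-only distal peaks have the same limit. Counts for all DKO peaks near these genes are not given, nor is the share of all coding genes with a member within 100 kb. Nothing is therefore read from the counts about the lists. Of the genes more responsive to Gata4 in DKO cells that the study chose on the same cell lines, those of its first group had 11 members within 100 kb of 11 of 53 start sites, and those of its second group 11 members near 9 of 39. Shared distal peaks numbered 8 and 22 there and WT-only distal peaks 24 and 19. The endoderm factors, transcription factors such as Sox17, Foxa2 and Hnf4a, had 5 members near 2 of 10 genes, the cardiac factors 3 near 3 of 10, and the blood and vessel genes 8 near 6 of 10. In terms of all members these are shares of 0.136% to 0.498%. The same lists had 0.265% to 0.970% of shared and 0.210% to 0.505% of WT-only distal peaks. The cardiac factors had 18 shared (0.794%) and 19 WT-only distal peaks (0.4%) near them, against the 3 members (0.136%).

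Among the members near endoderm factors were peaks upstream of Gata4 itself. The peak shown above, 72044 bp upstream of the Gata4 start, was 11.3 high over an ES height of 1.56 and ranked 962, with 2 WGATAA matches and 16 CpGs. Its nearest WT peak was 4482 bp away. Peaks at 12147 and 95744 bp had heights of 6.05 and 6.17. Within 500 kb of a start site of the gene (chr14:63817759-63890529, minus strand) there were 9 members, 7 of them with WGATAA and with heights from 5.31 to 21.8, beside 4 shared and 7 WT-only distal peaks. The Defb42 peak shown above was among them. This wider span was chosen after the values were seen.

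For the other lists, the peaks with the best rank were within 100 kb of Sh2d4a and Mybph of the second group, with heights of 11.1 and 9.82 and no match, and Lmo2, a cofactor of blood and vessel formation, with 7.79 and 1 match at 61618 bp. A second peak by Sh2d4a was 8.81 high with 2 matches. The first group was represented by Tom1l1 at 7.56 and 5730469M10Rik at 12.2. Peaks near Kdr, the gene of Flk1 itself, at 85226 bp, and near the cardiac factors Hand1, Hand2 and Myocd were among the low ones, at 5.48, 5.16, 5.47 and 5.33.

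Chromosome 8 held more members than its length would give. It had 297, which is 13.4% (12.1 to 14.9), or 2.25 per Mb against a median of 0.804 on the other chromosomes, which ranged from 0.132 on X to 1.32 on chromosome 11. Shared distal peaks were also dense there, at 1.72 per Mb against 0.834, and WT-only distal peaks at 3.04 against 1.7, with 3.15 on chromosome 11. The ratio of chromosome 8 to the others was 2.80 for members, 2.07 for shared and 1.79 for WT-only distal peaks. As a share of the set, chromosome 8 held 12.9% (11.8 to 13.95) of DKO-only peaks near genes, which overlaps the value of the members, 10.0% (8.84 to 11.3) of shared and 8.43% (7.68 to 9.26) of WT-only distal peaks. Of all DKO peaks it held 9.27% (8.90 to 9.66), and of all WT peaks 6.69% (6.35 to 7.04). Chromosome 8 was thus dense in both lists. The median ES height over all DKO peaks was 1.62 on chromosome 8 and 1.58 on the other chromosomes. In the WT list the corresponding values were 1.98 and 1.66. Beyond 120 Mb of chromosome 8 the median ES height was 1.45 over all DKO peaks and 2.04 over all WT peaks. The part of the ES background in the counts was not tested.

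**Figure D5:**
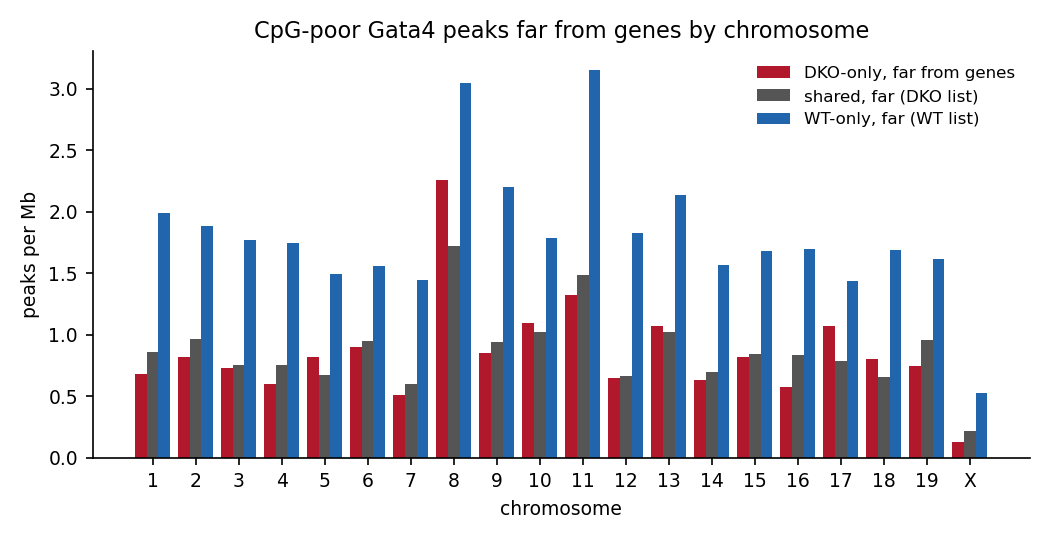
CpG-poor Gata4 peaks far from genes per Mb (vertical axis) by chromosome (horizontal axis), with bars for DKO-only, shared and WT-only distal peaks. DKO-only distal peaks reach 2.25 per Mb on chromosome 8 and at most 1.32 elsewhere, and the other sets are dense on chromosome 8 as well.

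The members on chromosome 8 were concentrated at its far end, a region chosen after the values were seen. Beyond 120 Mb lay 112 members, 9.54 per Mb, with 62 shared (5.28 per Mb) and 91 WT-only distal peaks (7.75 per Mb). The genome was cut into 264 steps of 10 Mb. The step from 120 to 130 Mb held 10.7 members per Mb, the next highest 3.5 and the median step 0.7. That step also held 45.2 peaks of the whole DKO list per Mb and 12.5 coding genes per Mb. Of all DKO peaks, 2.10% lay beyond 120 Mb of chromosome 8, against 5.07% of members. Members in this end held WGATAA in 31.3% (23.4 to 40.3), against 56.8% (49.6 to 63.7) on the rest of chromosome 8 and 57.1% on the other chromosomes. Shared distal peaks in the end held it in 75.8% and WT-only distal peaks in 70.3%. The matches of the members there were central in 26.8% (15.7 to 41.9). This wide interval holds the 20.2% of even placement and reaches close to the 42.2% over all members. In this end the value was 35.6% for shared distal peaks and 31.5% for DKO-only peaks near genes. The end thus held many members with few motifs. Their median height was 5.89 and their ES height 1.40.

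Members also lay in groups. With gaps of at most 50 kb, 468 members formed 121 groups of 3 or more. The largest held 16 members over chr8:122754863-122896932 beside Fam92b and Gse1, of which 7 had WGATAA, and the next 10 over chr8:129021697-129072495 beside Irf2bp2, of which 3 had it. Each of the 5 largest groups was in the end of chromosome 8, and the largest elsewhere had 7 members beside Rybp on chromosome 6. Having a neighbour of the same set within 10 kb was no more common in members, at 26.3%, than in shared (28.5%) and WT-only distal peaks (28.6%).

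The 5 tallest members were on chromosome 8 too, outside its end. Of the 18 members over 20 in height, 7 were on it (38.9%, 20.3 to 61.4). The 5 tallest, named after their values were seen, were nearest Dctn6 (37.9 over an ES height of 10.6), Mylk3, a myosin light chain kinase of the heart (33.8 over 4.52), Dusp4, a phosphatase of MAP kinases (32.2 over 3.23), 1700024N20Rik (30.6 over 6.46) and Fgfr1, a receptor of fibroblast growth factors (27.7 over 4.56). Each held 2 or 3 WGATAA matches. The Mylk3 peak lay 100 bp from the Mylk3 start of the annotation used here, though the authors named no gene for it. Their WT neighbours were between 721 and 14417 bp away, the nearest beside the Dctn6 peak with a height of 18.4 in the WT profile. A high ES height stood under each of them, against a median of 1.33 over the members. Shared distal peaks over 20 were on chromosome 8 in 20 of 92 cases (21.7%, 14.5 to 31.2), an interval that overlaps that of the members.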

How the data were processed

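Gata4 ChIP-seq peak lists of WT and DKO Flk1(+) cells were used, each called by the authors over their own ES control. The deposited signal is the height of the authors' profile at the peak in the Flk1(+) and ES libraries, the deposited rank was used as the score, and the position and gene name are also the authors'. Their enrichment and q-value columns hold their own comparison and were not used. The submitters' processing notes name CASAVA 1.8.1, cutadapt and mm9, and the aligner is not given in the sources used here. No column names a library, so the genotype of each list was taken from how many peaks the study reports for it. Depth is not given in the files, so the precision of a height is not known.

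All 22733 deposited sequences of the DKO list matched mm9 centred on the position. Lower-case letters in them were taken as repeat-masked, because the reference is not masked as the design had assumed. Words were searched on both strands. Start sites came from GENCODE vM1. Medians and shares were described with no test. Peaks named are the 10 members with the best rank, the 5 with the most WGATAA matches, the 3 on either side of each limit, and up to 10 members within 100 kb of listed genes. Some items this rule covers are not reported here. Further list genes (the lower Gata4 peaks, Kdr, Hand1, Hand2 and Myocd), genes beside groups of members and others so marked were chosen after their values were seen. The members and lists were chosen with earlier results of these data known. The alternatives changed the CpG, rank, gene, motif, window, repeat and start-site limits. The steps were tested on simulated data with Python 3.11.15, NumPy 2.4.6, pandas 2.3.3, SciPy 1.17.1, pysam 0.24.0, samtools 1.23.1 and Matplotlib 3.10.9.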

Additional observations from a re-analysis of the deposited data

How the results depend on the processing

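Of 79 alternative values, 19 moved beyond the 95% interval of the value as reported or, for the number of members, by over 1.5 times, and 60 did not. That number was 1560 with fewer than 10 CpGs. With fewer than 10 CpGs the share of members with WGATAA was 59.9%, the median ES height 1.27, the share over 50 kb from a start site 44.6%, the median masked share 15.7% and the share of matches with a CpG within 10 bp 17.1%. With the better 50% of ranks, 970 members were left, with WGATAA in 67.5%, 46.0% of matches central, a height of 6.77, an ES height of 1.17 and 45.2% over 50 kb from a start. That last share was 44.1% without peaks within 5 kb of a coding gene body, 28.4% with all annotated start sites, and 38.7% without chromosome 8, a setting chosen after the data were seen. With WGATAR the share of members was 66.6% and the central share 37.3%. WGATAA was in 43.1% of members within 100 bp of the peak and in 59.7% of members under 50% masked. A CpG lay within 25 bp of 45.5% of matches. The cause was not tested where the construction does not give it. No paired analysis was possible because each condition has 1 library and no test was run, and no replicate could be left out. Without replicates, no difference between the sets is separated from a difference between libraries, and low peaks near the threshold of 5.00 limit how firmly absence in the other list can be read.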
